A study of Homo sapiens with 24 samples.

Results

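RXRG, CDH19, NGFR, AQP1, GFRA2, S100B, FOXD3 and NES are genes that melanoma studies use to describe a neural crest-like cell state. All probes annotated to 1 of these 8 symbols were taken, which gave 12 of the 47231 probes on the array, for 8 of the 18811 genes with a probe. The study measured the total RNA of 2 human melanoma cell lines on Illumina bead arrays, with 3 arrays for each of 8 groups and 24 arrays in all. Mel-624 cells were transfected with siIGF1R, a pool of siRNAs against the receptor IGF1R, or with siControl, a non-targeting pool, and were kept for 3 days in hypoxia or normoxia. The 4 Mel-624 groups were therefore siIGF1R in hypoxia, siControl in hypoxia, siIGF1R in normoxia and siControl in normoxia, and all of them were transfected. WM35 cells were not transfected. They were kept for 24 h at 1% oxygen (hypoxia) or 21% oxygen (normoxia), with or without recombinant human IGF1 (rhIGF1, 100 ng/mL) for the last 6 h. The 4 WM35 groups were rhIGF1 in hypoxia, control in hypoxia, rhIGF1 in normoxia and control in normoxia. The oxygen levels used for Mel-624 were not given in the sources used here. Only 1 siRNA pool against IGF1R and 1 control pool were used, each line was hybridised on a chip of its own, and line, chip, culture time and transfection cannot be told apart. Whether the 3 arrays of a group came from separate cultures is not stated, so the p-values rest on a spread between arrays that may be technical.

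Melanocytes arise from the neural crest, a migratory population of the embryo that also gives rise to Schwann cells and sensory neurons, and melanoma cells can take on transcripts of that origin. RXRG encodes the retinoid X receptor gamma, a nuclear receptor that binds DNA alone or as the partner of other nuclear receptors. CDH19 encodes a cadherin, a cell adhesion protein found in Schwann cell precursors. NGFR is a receptor for neurotrophins, GFRA2 is the co-receptor for neurturin, and AQP1 is a water channel. S100B is a calcium-binding protein of glia and melanocytes, FOXD3 is a forkhead transcription factor of premigratory neural crest, and NES encodes nestin, an intermediate filament protein of stem and progenitor cells. IGF1R, the receptor that IGF1 activates, signals through the PI3K and MAPK pathways.

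RXRG and CDH19 were the members that changed with the treatments in Mel-624, so the 250 bases upstream of their annotated transcript starts are shown. RXRG lies on the minus strand of chromosome 1, and the bases are at chr1:165445127-165445376. CDH19 lies on the minus strand of chromosome 18, and the bases are at chr18:66604091-66604340. Both come from RefSeq on GRCh38.p14 and read 5′ to 3′ towards the start of transcription. Capitals mark the matches to the motifs searched.
RXRG: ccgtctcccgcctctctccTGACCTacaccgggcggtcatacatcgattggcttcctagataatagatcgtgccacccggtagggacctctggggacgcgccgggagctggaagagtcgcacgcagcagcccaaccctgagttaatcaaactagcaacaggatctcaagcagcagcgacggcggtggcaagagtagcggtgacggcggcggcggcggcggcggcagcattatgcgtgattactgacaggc
CDH19: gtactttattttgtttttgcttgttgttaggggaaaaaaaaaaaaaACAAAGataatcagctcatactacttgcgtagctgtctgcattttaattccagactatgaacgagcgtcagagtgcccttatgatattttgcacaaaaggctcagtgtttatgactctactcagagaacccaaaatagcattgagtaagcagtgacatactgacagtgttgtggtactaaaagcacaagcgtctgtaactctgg

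6 letter strings were searched on both strands, namely the hypoxia response core ACGTG, the nuclear receptor half-site AGGTCA, the SOX sites ACAAAG and ACAATG, the forkhead site GTAAACA and the M-box core CATGTG. None of these strings overlapped another in the windows shown. The RXRG window held 1 match, to AGGTCA on its minus strand at bases -231 to -226 from the start. A match to AGGTCA was found in 12.1% of the 35116 RefSeq promoter windows of this length. The CDH19 window held 1 match, to ACAAAG on its plus strand at bases -204 to -199, and 13.7% of all windows held that string. The letters ACGTG were in neither window and were in 18.5% of all windows. ACAATG was in neither and in 9.29% of all windows. GTAAACA was in neither and in 2.98% of all windows. CATGTG was in neither and in 9.42% of all windows. The GC content was 62.0% in the RXRG window and 38.0% in the CDH19 window, with a median of 58.0% over all windows. Windows of 5 members were in the RefSeq table used here. Of the other 3, those of AQP1 and FOXD3 held ACAAAG, that of NES held AGGTCA, and that of FOXD3 held ACGTG on both strands in 1 overlapping match at bases -56 to -51. These matches describe the letters alone.

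Between 13948 and 15987 probes per array were detected, that is, had a detection p below 0.01 in the deposited table (29.5% to 33.8% of probes). SOX10, a transcription factor of the neural crest and melanocyte lineage, was detected on 12 of 12 Mel-624 arrays and on 12 of 12 WM35 arrays. The pigment cell genes TYR, TYRP1, PMEL and MLANA were detected on 12 of 12 Mel-624 arrays and on 0 of 12 WM35 arrays, and S100B was detected on none of either. Of the 15 melanocyte differentiation genes with a probe, 15 were detected on at least 3 arrays in Mel-624 and 4 in WM35, where MC1R was on 12 of 12 arrays, MITF on 8, RAB27A on 6 and OCA2 on 5, and 9 of the 15 were detected on no WM35 array. Of the markers of other cells, keratinocyte genes were on at least 3 arrays for 0 of 6 genes with a probe in both lines, and fibroblast genes for 2 of 7 in Mel-624 (DCN and LUM) and 1 of 7 in WM35 (LUM). Immune genes were on at least 3 arrays for 1 of 6 genes with a probe in both lines, CD68, which was detected on all arrays. Neuron genes were on at least 3 arrays for 2 of 7 in both lines. These were the neuronal tubulin TUBB3 on all arrays, with SNAP25 in Mel-624 and SYT1 on 6 of 12 WM35 arrays. In Mel-624 CD68 averaged 1300 signal units and TUBB3 4080, so these 2 genes make up most of the immune and neuron sums below. The summed fibroblast signal of Mel-624 was 456 to 588 in siIGF1R normoxia against 420 to 457 in siControl normoxia, and 344 to 527 in siIGF1R hypoxia against 332 to 456 in siControl hypoxia. The summed immune signal was 1270 to 1550 in siIGF1R normoxia against 1280 to 1540 in siControl normoxia, and 1460 to 2100 in siIGF1R hypoxia against 1250 to 1530 in siControl hypoxia. The summed neuron signal was 3820 to 4310 in siIGF1R normoxia against 3600 to 4370 in siControl normoxia, and 4160 to 5690 in siIGF1R hypoxia against 4020 to 4690 in siControl hypoxia. SNAP25, a synaptic vesicle fusion protein, was 0.63 ± 0.12 higher on the log2 scale with siIGF1R in normoxia and 0.77 ± 0.12 higher in hypoxia (limma adjusted p = 0.0038 and 0.00054). The part of these markers in the results was not tested. Within groups, the main axis of spread in WM35 held 31.3% of the variance. On it rhIGF1 hypoxia C, hypoxia control A and normoxia control C lay at 10.96, 14.73 and 11.25, each away from the other 2 arrays of its group. On the other side, rhIGF1 normoxia B lay at -9.70, against 3.60 and 6.09 for A and C. In Mel-624 the main axis held 19.7%, with siIGF1R normoxia A at -11.04, siIGF1R hypoxia A at -10.0 and siControl normoxia B at 9.76. The WM35 arrays hypoxia control A and normoxia control C were also left out together, and each array on its own.

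Most of the 8 genes were at or below background. NGFR, AQP1, S100B and FOXD3 were detected on 0 of 24 arrays, by 5 probes. GFRA2 was detected on 2 of 12 Mel-624 arrays and 1 of 12 WM35 arrays, and 3 members were detected on at least 3 arrays of a line. Both lines left 2 members to test. These were RXRG and CDH19 in Mel-624, and CDH19 and NES in WM35. A probe was tested in a line if it was detected on at least 3 of its 12 arrays, and a gene was read by its brightest such probe, so only genes that reached detection somewhere could be called.

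**Figure D1:**
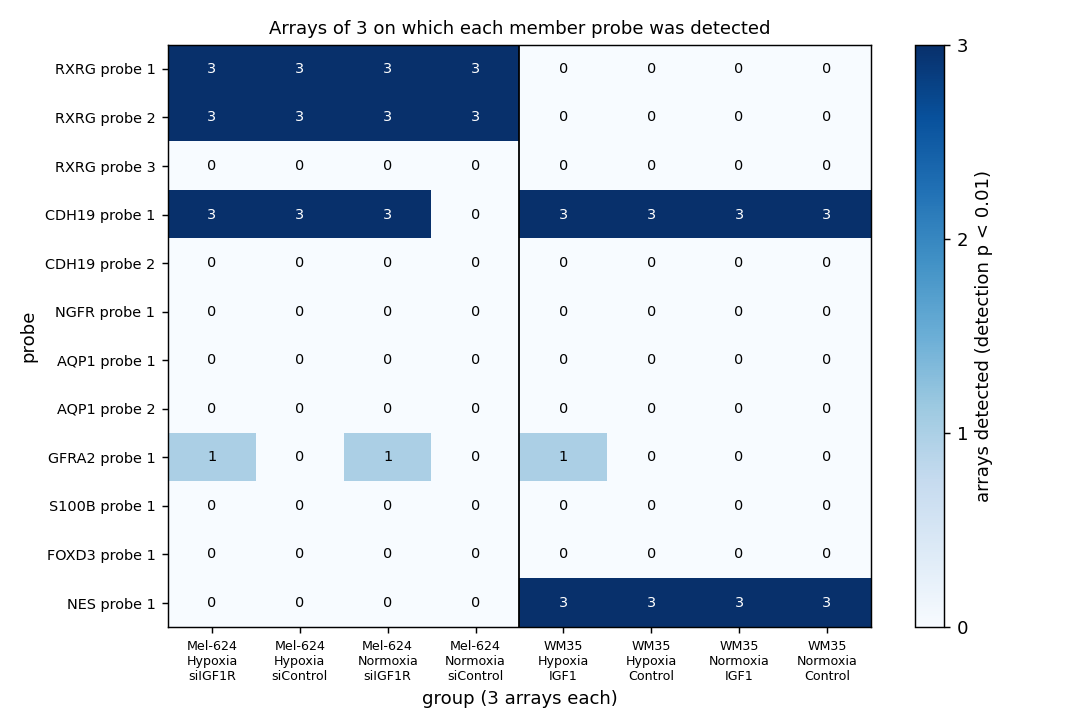
The number of arrays, of 3 per group, on which each of the 12 probes was detected (rows, probes; columns, the 8 groups). RXRG probes 1 and 2 were detected on all Mel-624 arrays and no WM35 array, NES on all WM35 arrays and no Mel-624 array, and CDH19 probe 1 in all groups except Mel-624 siControl in normoxia.

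The undetected members had signals close to 0 on the deposited scale, from which background had been subtracted. NGFR, whose product binds nerve growth factor, gave -2.28 to 11.9 in Mel-624 and -0.248 to 20.1 in WM35. S100B gave -12.9 to 0.415 in Mel-624 and -14.9 to 4.62 in WM35. FOXD3 gave -10.2 to 10.4 in Mel-624 and -10.8 to 0.509 in WM35. The brighter AQP1 probe gave 0.474 to 31.2 in Mel-624 and -1.55 to 19.2 in WM35. GFRA2 gave 11.4 to 34.2 in Mel-624 and 5.90 to 27.6 in WM35, just around the lowest signals called detected, which were 26.3 to 41.7 on Mel-624 arrays and 21.0 to 29.9 on WM35 arrays. These probes bound the signal from above and do not show that the transcripts were absent.

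The target of the siRNA was lower in Mel-624 siIGF1R cells. IGF1R averaged 6.23 in siIGF1R cells and 7.04 in siControl cells in normoxia on the normalized log2 scale, a difference of -0.81 ± 0.18 (SE, n = 3 each, limma adjusted p = 0.0099). In hypoxia it averaged 6.60 in siIGF1R cells and 8.45 in siControl cells, a difference of -1.84 ± 0.18 (adjusted p = 2.5e-05, limma). Of 10 genes listed as a check of hypoxia 7 were tested in each line, among them BNIP3, P4HA1 and NDRG1. All 7 rose in both lines in all 4 comparisons of hypoxia with normoxia. The share of all genes called there was 51.6% (siControl) and 50% (siIGF1R) in Mel-624. In WM35 it was 20.7% without rhIGF1 and 15.6% with it.

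RXRG rose with siIGF1R in Mel-624, in normoxia and in hypoxia. The probe for its coding transcript (ILMN_1750624) gave 234, 213 and 233 signal units in siIGF1R cells in normoxia, against 76.2, 74.6 and 84.5 in siControl cells. After normalization the same arrays gave 7.70, 7.82 and 7.81 in siIGF1R cells and 6.39, 6.51 and 6.53 in siControl cells on the log2 scale. The groups did not overlap, and every siIGF1R array lay above every siControl array. The difference was 1.30 ± 0.09 (SE, 95% confidence interval 1.11 to 1.5, limma adjusted p = 2.3e-05), a 2.46-fold increase. RXRG had the smallest p of the 9292 genes tested (rank 1). It was chosen with earlier results of these data known, so the rank gives no independent support. In hypoxia the values were 8.19, 8.15 and 8.23 in siIGF1R cells and 7.23, 7.02 and 7.22 in siControl cells. The difference was 1.03 ± 0.09 (95% confidence interval 0.84 to 1.23, limma adjusted p = 1.3e-05), or 2.05-fold, with rank 29 by p. A higher level per cell and a larger share of RXRG-positive cells cannot be told apart in bulk RNA.

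RXRG also rose with hypoxia in Mel-624, in both siRNA arms. In siControl cells it averaged 7.16 in hypoxia and 6.48 in normoxia, a difference of 0.68 ± 0.09 (95% confidence interval 0.49 to 0.88, limma adjusted p = 4e-05). In siIGF1R cells it averaged 8.19 in hypoxia and 7.78 in normoxia, a difference of 0.41 ± 0.09 (95% confidence interval 0.22 to 0.61, limma adjusted p = 0.002). The order of the 4 groups was siControl normoxia, siControl hypoxia, siIGF1R normoxia and siIGF1R hypoxia, low to high, and no neighbouring groups overlapped. The siIGF1R effect was smaller in hypoxia by -0.27 ± 0.13, and that interaction did not pass the test (95% confidence interval -0.54 to 0.01, limma adjusted p = 0.34).

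**Figure D2:**
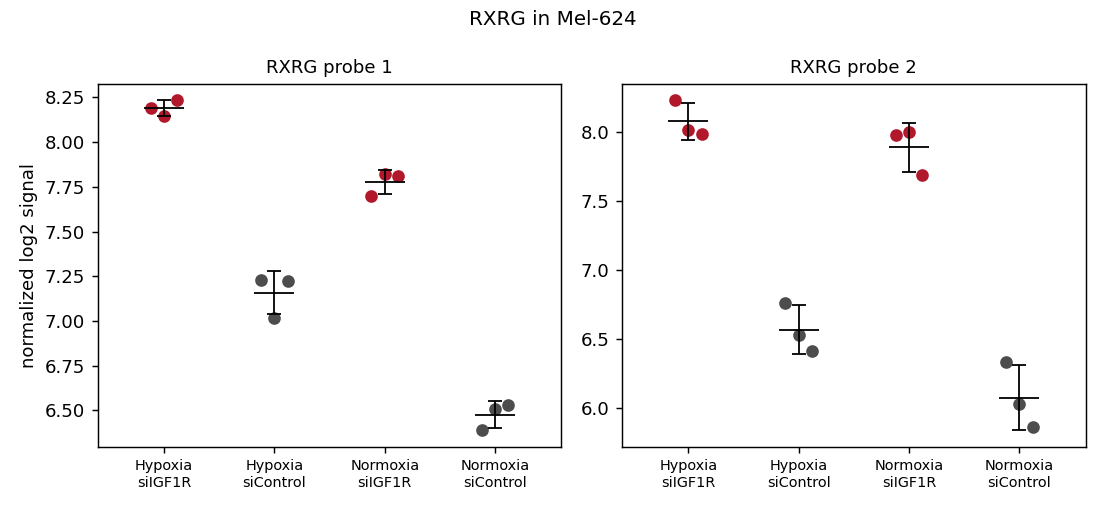
Normalized log2 signal of 2 RXRG probes in the 4 Mel-624 groups (y axis, log2 units; points, arrays; bars, mean and SD of 3 arrays). The siIGF1R arrays lie above the siControl arrays in both oxygen states for both probes, by 1.30 in normoxia and 1.03 in hypoxia for probe 1.

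A second RXRG probe (ILMN_1809730), which the annotation assigns to a non-coding variant of the gene, was also detected on 12 of 12 Mel-624 arrays. It read 7.98, 8.01 and 7.69 in siIGF1R cells in normoxia and 6.33, 6.03 and 5.86 in siControl cells. In hypoxia it read 8.24, 8.02 and 7.99 in siIGF1R cells and 6.76, 6.53 and 6.41 in siControl cells. The siIGF1R effect at this probe was 1.82 ± 0.14 in normoxia and 1.51 ± 0.14 in hypoxia (limma adjusted p = 8.1e-05 for both, over all probes). Its hypoxia effect was 0.49 ± 0.14 in siControl cells (adjusted p = 0.023, limma over all probes). In siIGF1R cells the hypoxia effect was 0.19 ± 0.14 and did not pass the test (adjusted p = 0.46, limma over all probes), so the probes differ in this call for RXRG. The third RXRG probe, assigned to the same non-coding variant, was detected on 0 of 24 arrays and gives no fold change.

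CDH19 rose with siIGF1R in Mel-624 as well. In normoxia its detected probe (ILMN_1734744) read 5.98, 6.17 and 5.93 in siIGF1R cells, against 5.29, 5.35 and 5.07 in siControl cells. The siControl arrays in normoxia were not above background, with detection p between 0.0195 and 0.0468, while all 3 siIGF1R arrays were. The difference was 0.79 ± 0.13 (95% confidence interval 0.52 to 1.07, limma adjusted p = 0.0017), and against the lowest detected signals of the siControl arrays CDH19 was at least 1.40-fold higher in siIGF1R cells. In such bounds the dim group is set, per array, at the higher of its own value and the lowest detected signal. In hypoxia CDH19 read 7.0, 7.50 and 7.16 in siIGF1R cells and 5.75, 5.77 and 5.75 in siControl cells. All 6 of these arrays were above background, and the difference was 1.46 ± 0.13, or 2.76-fold (95% confidence interval 1.19 to 1.74, limma adjusted p = 1.3e-05).

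Hypoxia raised CDH19 in Mel-624 in both arms. In siControl cells CDH19 averaged 5.75 in hypoxia and 5.24 in normoxia, a difference of 0.52 ± 0.13 (limma adjusted p = 0.0043), at least 1.16-fold higher in hypoxia with the normoxic arrays taken at their detection bound. With the authors' own normalized values the same CDH19 difference was 0.385 and did not pass (limma adjusted p = 0.11). In siIGF1R cells CDH19 averaged 7.22 in hypoxia and 6.03 in normoxia, a difference of 1.19 ± 0.13, or 2.28-fold (limma adjusted p = 7.4e-06). The interaction of siIGF1R and hypoxia for CDH19 was fitted at 0.67 ± 0.18 (95% confidence interval 0.28 to 1.06), with an unadjusted p of 0.0026, and did not pass over all genes (limma adjusted p = 0.10). It rests on the normoxic siControl arrays, none of which was above background, so the size of the difference between oxygen states is not settled. The highest group was siIGF1R hypoxia and the lowest siControl normoxia, and none of the 4 groups overlapped. The second CDH19 probe was detected on 0 of 24 arrays, with signals of -10.4 to 12.2 in Mel-624, and gives no fold change.

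Both members tested in Mel-624 were called higher in each of these 4 comparisons, adjusted p below 0.05. For siIGF1R in normoxia, 2 of 2 members were called, against 16% of all 9292 genes. For siIGF1R in hypoxia, 2 of 2 were called, against 25.8% of all genes. For hypoxia in siControl cells, 2 of 2 were called, against 51.6%, and for hypoxia in siIGF1R cells, 2 of 2, against 50%. Against that background the hypoxia calls do not set the members apart. The siIGF1R calls cannot set them apart either, since the members were chosen with earlier results of these data known. CDH19 also passed the detection filter only through the groups where it was higher, with 0 of 3 siControl normoxia arrays detected. In the interaction 0 of 2 members were called, against 0.818% of all genes (limma). Of the 2, CDH19 alone had an unadjusted p below 0.05, as did 1411 of all 9292 genes.

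**Figure D3:**
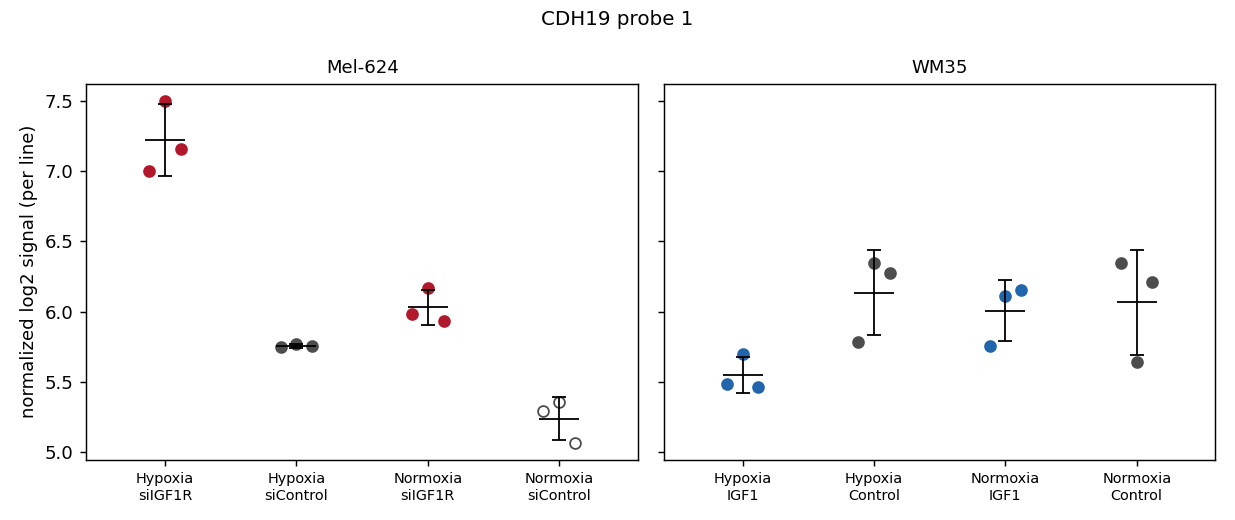
Normalized log2 signal of CDH19 probe 1 in Mel-624 (left) and WM35 (right) (y axis, log2 units per line; points, arrays, open where not above background; bars, mean and SD of 3 arrays). In Mel-624 the siIGF1R hypoxia arrays lie at 7.0 to 7.50 and the 3 open siControl normoxia arrays at 5.07 to 5.35. In WM35 the rhIGF1 hypoxia arrays lie at 5.46 to 5.70 and the control hypoxia arrays at 5.79 to 6.34, a difference that did not pass the test.

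In WM35, CDH19 was above background on 12 of 12 arrays, and no comparison passed the test. In hypoxia it read 5.49, 5.70 and 5.46 in rhIGF1 cells and 5.79, 6.34 and 6.27 in control cells. The difference was -0.59 ± 0.19 and did not pass (95% confidence interval -1.0 to -0.17, limma adjusted p = 0.077). Without hypoxia control A, 1 of the arrays that stood apart, the difference was -0.76 and passed (limma adjusted p = 0.035). Without both control arrays that stood apart it was -0.76 as well (limma adjusted p = 0.040), without rhIGF1 hypoxia C it was -0.542 (limma adjusted p = 0.18), and without normoxia control B it was -0.585 (limma adjusted p = 0.042). On the authors' normalized values its size was lowest of the settings tried, at -0.30 (limma adjusted p = 0.55).

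The remaining CDH19 comparisons in WM35 did not pass either. In normoxia it read 5.76, 6.11 and 6.15 in rhIGF1 cells and 6.34, 5.64 and 6.21 in control cells, which overlapped, with a difference of -0.06 ± 0.19 (95% confidence interval -0.47 to 0.35, limma adjusted p = 0.90). Hypoxia changed it by 0.07 ± 0.19 without rhIGF1 (95% confidence interval -0.35 to 0.48, limma adjusted p = 0.84). With rhIGF1 the hypoxia difference was -0.46 ± 0.19 (95% confidence interval -0.87 to -0.04, limma adjusted p = 0.13). The interaction was -0.53 ± 0.27 (limma adjusted p = 0.63).

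NES was bright in WM35 and undetected in Mel-624. Its probe gave 1455, 1277 and 1215 signal units in WM35 rhIGF1 hypoxia, against 989, 1122 and 1259 in control hypoxia. In normoxia it gave 1238, 1460 and 1189 in rhIGF1 cells and 1806, 1676 and 1348 in control cells. The mean signal over all probes was 256 to 260 in the rhIGF1 and hypoxia groups of WM35 and 331 in normoxia control. After normalization NES read 10.31, 10.65 and 10.23 in rhIGF1 normoxia and 10.51, 10.43 and 10.15 in control normoxia, which overlapped. NES differed by 0.03 ± 0.13 with rhIGF1 in normoxia (limma adjusted p = 0.93) and by 0.19 ± 0.13 in hypoxia (95% confidence interval -0.10 to 0.49, limma adjusted p = 0.41). Hypoxia changed NES by -0.05 ± 0.13 without rhIGF1 (95% confidence interval -0.34 to 0.24) and by 0.11 ± 0.13 with it (95% confidence interval -0.18 to 0.40), and neither passed (limma adjusted p = 0.83 and 0.61). The interaction was 0.16 ± 0.19 (limma adjusted p = 0.87).

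**Figure D4:**
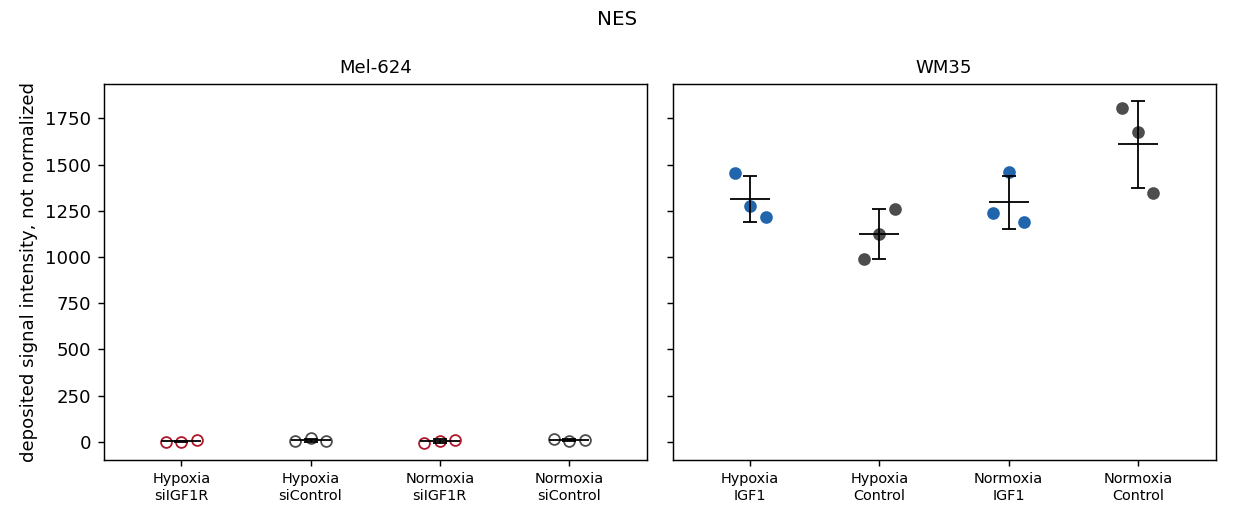
Deposited signal of the NES probe in Mel-624 (left) and WM35 (right) (y axis, signal intensity, not normalized between arrays; points, arrays, open where not above background; bars, mean and SD of 3 arrays). All 12 WM35 arrays lie between 989 and 1806 and all 12 Mel-624 arrays between -4.90 and 17.9.

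Of the 2 members tested in WM35, 0 of 2 were called in any of the 5 comparisons (limma). Over all 9569 genes the share called was 1.58% for rhIGF1 in normoxia, 9.06% for rhIGF1 in hypoxia, 20.7% for hypoxia without rhIGF1, 15.6% for hypoxia with it and 0.0523% for the interaction. At an unadjusted p below 0.05, CDH19 passed for rhIGF1 in hypoxia, as did 2351 of all 9569 genes. It also passed for hypoxia with rhIGF1, as did 2893 of all 9569 genes. NES passed in none of the 5.

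**Figure D5:**
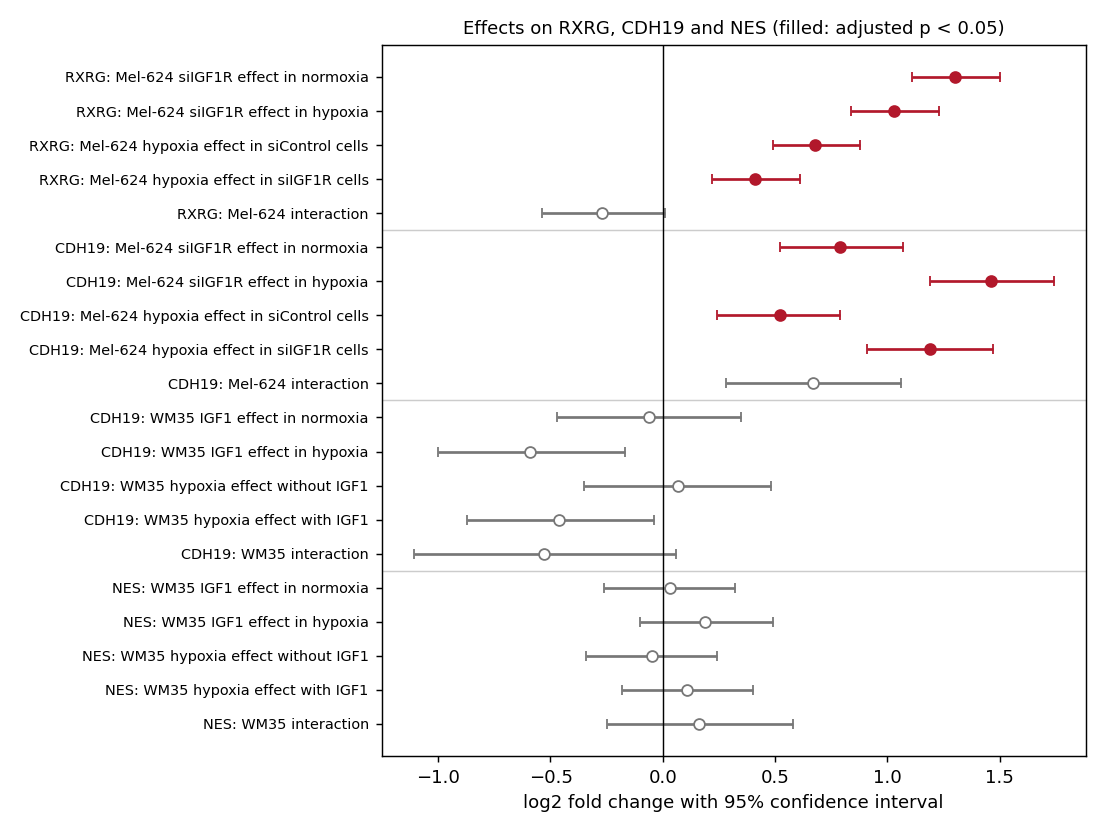
Log2 fold change of each tested member with its 95% confidence interval (x axis, log2 units; rows, gene and comparison; filled points, adjusted p below 0.05). All 8 filled points are RXRG or CDH19 in Mel-624, and all of them lie above 0.

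The lines differed at these genes with all 24 arrays normalized together. In normoxia RXRG averaged 6.41 in Mel-624 siControl cells and 4.84 in WM35 control cells, where it was not above background, and was at least 2.09-fold higher in Mel-624 (1.57 ± 0.12, limma adjusted p = 4.7e-11). CDH19 averaged 5.19 in Mel-624, where it was not above background, and 6.13 in WM35, and was at least 1.57-fold higher in WM35 (-0.95 ± 0.17, limma adjusted p = 3.3e-05). NES averaged 4.78 in Mel-624 and 10.46 in WM35, and was at least 31.6-fold higher in WM35 (-5.69 ± 0.15, limma adjusted p = 1.6e-19). Of 3 members tested, 3 of 3 were called, against 70.5% of all 10470 genes. RXRG and NES were thus detected each in a different line and CDH19 in both.

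The hypoxia effect in Mel-624 siControl cells was also compared with that in WM35 control cells. RXRG changed by 0.75 ± 0.16 more in Mel-624 than in WM35 (95% confidence interval 0.41 to 1.09, limma adjusted p = 0.0013), but it was not above background in WM35, and without further background correction the difference was 0.721 and did not pass (limma adjusted p = 0.061). For CDH19 the fitted difference was 0.43 ± 0.24 (limma adjusted p = 0.18), and 0.645 without WM35 normoxia control B, which passed (limma adjusted p = 0.031). Both values rest on Mel-624 siControl arrays in normoxia on which CDH19 was not above background. NES changed by 0.11 ± 0.21 (limma adjusted p = 0.74). Of 3 members, 1 of 3 was called, against 32.9% of all genes.

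Other neural crest and Schwann cell precursor genes were read from a list of 38, of which 20 were tested in Mel-624. With siIGF1R in normoxia 4 rose and 2 fell, where 16% of all genes were called, with a list median of 0.18 against 0.00 over all genes. EDNRB, the endothelin receptor B of migrating melanoblasts, was 0.77 ± 0.09 higher, and TFAP2A, a transcription factor of the neural crest, was 0.71 ± 0.09 higher (limma adjusted p = 0.00031 and 0.00041). FABP7, a fatty acid binding protein of glia, was lower by -0.78 ± 0.11 (limma adjusted p = 0.00083). In hypoxia 4 rose and 2 fell, where 25.8% of all genes were called, with a median of 0.02 against 0.02. EDNRB was 1.07 ± 0.09 higher, TFAP2A 0.52 ± 0.09 higher and FABP7 changed by -0.58 ± 0.11 (limma adjusted p = 1.2e-05, 0.0014 and 0.0023). With hypoxia in siControl cells 10 rose and 3 fell, where 51.6% of all genes were called, with a median of 0.34 against -0.03, led by the adhesion molecule NCAM1 (1.22 ± 0.09) and the transcription factor TWIST1 (0.91 ± 0.08). In siIGF1R cells 9 rose and 3 fell, where 50% of all genes were called.

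In WM35, 21 genes of the same list were tested. With rhIGF1 in normoxia 0 rose and 0 fell (1.58% of all genes called), and in hypoxia 1 fell (9.06% of all genes called), the neuregulin receptor ERBB3 (-0.52 ± 0.10, limma adjusted p = 0.007). With hypoxia in control cells 7 rose and 2 fell, where 20.7% of all genes were called. SOX9, a transcription factor of the neural crest, was 1.86 ± 0.15 higher, the bHLH inhibitor ID2 was 1.27 ± 0.14 higher and SOX10 changed by -0.42 ± 0.08 (limma adjusted p = 3.4e-06, 5.7e-05 and 0.0041). For hypoxia with rhIGF1 4 rose and 4 fell, where 15.6% of all genes were called.

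The retinoid list, which holds the partners of RXRG and the enzymes of retinoic acid, had 14 genes tested of 26 in Mel-624. With siIGF1R in normoxia 2 rose and 2 fell, where 16% of all genes were called, with a list median of 0.04. ALDH1A3, an enzyme that makes retinoic acid, was 0.67 ± 0.10 higher and RXRB, the beta retinoid X receptor, was 0.48 ± 0.12 higher (limma adjusted p = 0.00083 and 0.016). NR1H3, a nuclear receptor that pairs with retinoid X receptors, changed by -0.33 ± 0.09 (limma adjusted p = 0.024). RXRA, the alpha receptor, changed by -0.5 ± 0.15 (limma adjusted p = 0.043). In hypoxia, where 25.8% of all genes were called, 3 rose and 0 fell, with a median of -0.02, and with ALDH1A3 at 0.67 ± 0.10 and RXRB at 0.52 ± 0.12. With hypoxia in siControl cells 5 rose and 4 fell, where 51.6% of all genes were called, with a median of -0.08. TGM2 was 1.11 ± 0.09 higher, RXRA changed by -1.68 ± 0.15 and RDH10 by -1.38 ± 0.13 (limma adjusted p = 8.6e-07, 1.9e-06 and 2.8e-06). In WM35, 16 were tested, and with rhIGF1 in hypoxia, where 9.06% of all genes were called, 1 rose and 2 fell. TGM2 rose (0.56 ± 0.09, limma adjusted p = 0.0038). RXRB (-0.45 ± 0.10, limma adjusted p = 0.02) and DHRS3 (-0.36 ± 0.11) fell.

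Of 22 neurotrophin and GDNF family genes, which include the relatives and partners of NGFR and GFRA2, 6 were tested in Mel-624, and 0 rose and 0 fell in either oxygen state (medians 0.03 in normoxia and -0.13 in hypoxia), where 16% and 25.8% of all genes were called. With hypoxia in siControl cells, where 51.6% of all genes were called, 3 rose, led by the Nogo receptor RTN4R (1.55 ± 0.14) and neurturin, NRTN (0.94 ± 0.10), whose co-receptor is GFRA2 (limma adjusted p = 1.5e-06 and 9e-06). Of 12 cadherin and catenin genes 5 were tested, with medians of 0.23 in normoxia and 0.06 in hypoxia. None was called with siIGF1R in normoxia, where 16% of all genes were called. In hypoxia, where 25.8% were called, JUP, plakoglobin, was 0.53 ± 0.14 higher (limma adjusted p = 0.013). In WM35, 6 genes of this list were tested, and with rhIGF1 in hypoxia 0 rose and 1 fell, where 9.06% of all genes were called. The gene that fell was JUP (-0.45 ± 0.12, limma adjusted p = 0.031). Of 18 S100, intermediate filament and aquaporin genes 8 were tested in Mel-624, and 1 fell with siIGF1R in each oxygen state, S100A10 in normoxia (-0.29 ± 0.09) and S100A16 in hypoxia (-0.39 ± 0.10), where 16% and 25.8% of all genes were called. With hypoxia in siControl cells 5 of these 8 rose and 0 fell, where 51.6% of all genes were called, led by vimentin, VIM (0.95 ± 0.10).

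Melanocyte differentiation genes were tested for 15 of 16 in Mel-624. With siIGF1R in normoxia, where 16% of all genes were called, 2 rose and 0 fell, namely the receptor KIT (0.41 ± 0.10) and the melanosome antigen MLANA (0.27 ± 0.09). The list median was 0.04 in normoxia and 0.09 in hypoxia, where 3 rose and 1 fell and 25.8% of all genes were called. With siIGF1R in hypoxia the channel TRPM1 changed by -1.18 ± 0.13 and OCA2 by 0.55 ± 0.11 (limma adjusted p = 7.7e-05 and 0.0039). MITF, the master regulator of melanocytes, was 0.47 ± 0.10 higher there (limma adjusted p = 0.0041). With hypoxia in siControl cells 3 rose and 6 fell, where 51.6% of all genes were called. KIT was 1.1 ± 0.10 higher, TRPM1 changed by -1.41 ± 0.13 and MITF by -0.52 ± 0.10 (limma adjusted p = 1.3e-06, 2.4e-06 and 0.00071). Of 15 genes of undifferentiated and invasive melanoma, 7 were tested. With siIGF1R in normoxia 1 rose, the matrix protein THBS1 (1.26 ± 0.17), and in hypoxia 3 rose and 3 fell. The median was 0.03 in both, against 16% and 25.8% of all genes called. With siIGF1R in hypoxia CCN1 changed by -1.48 ± 0.12, THBS1 by 1.39 ± 0.17 and JUN by -0.92 ± 0.14 (limma adjusted p = 7.1e-06, 1e-04 and 0.00064). With hypoxia in siControl cells 4 of these 7 rose and 0 fell, where 51.6% of all genes were called, with a median of 0.76. They were led by CCN1 (3.02 ± 0.12) and JUN (2.09 ± 0.14).

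Over the 12 Mel-624 arrays RXRG and CDH19 correlated with each other at r = 0.899, and these arrays share the 4 groups and 1 chip. The genes most like RXRG were FAM167A (r = 0.985), ABTB1 (r = 0.979) and RFTN1 (r = 0.978), and the gene least like it was SNRPC (r = -0.977). The genes most like CDH19 were LMBRD1 (r = 0.985), ST7 (r = 0.983) and DPF2 (r = 0.975), and the least like it was ZMYND11 (r = -0.986). In WM35 the genes most like CDH19 were DEDD and PSMD4 (r = 0.875 each) and HPS4 (r = 0.858), and the least like it was SEPTIN7P11 (r = -0.907). The genes most like NES in WM35 were VAC14 (r = 0.951), SEC16A (r = 0.914) and MTF1 (r = 0.913), and the least like it was SCHIP1 (r = -0.924). NES and CDH19 correlated at r = -0.223 over the 12 WM35 arrays.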

How the data were processed

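Total RNA (300 ng) was amplified, biotin labelled and hybridised to Illumina bead arrays. Per the file headers, the deposited table holds 1 signal intensity and 1 detection p-value per probe and array. It had not been normalized between arrays, and values below 0 show that background was subtracted. GenomeStudio made the signals, per the submitters' processing notes, with no version stated in the sources. The authors also deposited a linear signal intensity table, normalized by an unstated method (38221 probes), which was used only as an alternative.

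Within each line, neqc (limma 3.58.1, offset 16, R 4.3.3) corrected the background from the detection p-values, quantile normalized the signals and took log2. The 2 comparisons between lines used all 24 arrays normalized together. A probe stayed if its detection p was below 0.01 on 3 or more of a line's 12 arrays (jointly, in either line), and the brightest such probe stood for its gene. Group means were fitted with lmFit and eBayes, Benjamini-Hochberg adjusted over all tested genes (9292 in Mel-624, 9569 in WM35, 10470 jointly), and called below 0.05. Differences on the log2 scale are siIGF1R minus siControl, rhIGF1 minus control, hypoxia minus normoxia and Mel-624 minus WM35. Gene symbols came from the platform annotation, and 20224 probes had none. The number of arrays limits the precision. The procedure was tested on simulated data. Files were read with the data.table package, version 1.17.8, and figures were drawn with matplotlib 3.10.9.

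All members were named in every comparison, with IGF1R as the siRNA target. From each list up to 3 called genes with the smallest p were named, and for each tested member the 3 genes with the highest and the 1 with the lowest correlation. MITF was named beyond these for hypoxia in Mel-624 siControl cells, and RXRA for siIGF1R in normoxia. Members and lists were chosen with earlier results of these data known. Alternatives left out the further background correction, used the authors' normalized values, asked for detection everywhere or nowhere, averaged or separated the kept probes, set a minimum fold change, fitted only the groups compared, normalized the lines apart, took the replicate letter as a block, or left out each array in turn.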

Additional observations from a re-analysis of the deposited data

Results flagged for a closer look

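The hypoxia effect on RXRG differed between Mel-624 siControl cells and WM35 control cells by 0.75 on the log2 scale (limma, adjusted p = 0.0013). Of all genes, 32.9% were called in this comparison. Hypoxia lasted 3 days in Mel-624 and 24 h in WM35, so the 2 hypoxia effects were not under the same conditions. Without further background correction the RXRG difference did not pass (limma adjusted p = 0.061). RXRG was detected on 12 of 12 Mel-624 arrays and on 0 of 12 WM35 arrays. Line, chip, culture time and transfection cannot be told apart here.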

How the results depend on the processing

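In Mel-624 the siIGF1R effect on RXRG kept its direction and its call under all 21 alternatives, at 1.26 to 1.56 in normoxia and 0.96 to 1.27 in hypoxia, and that on CDH19 under all 20 that tested it, at 0.71 to 0.85 and 1.32 to 1.57. No called difference changed sign. With detection required on all arrays, CDH19 was not tested in Mel-624, so 1 member was called in each of the 4 siIGF1R and hypoxia comparisons, and 0 members in both comparisons between lines, where none was tested. For hypoxia in siControl cells the count was 1 with the authors' normalized values (CDH19 0.385, adjusted p = 0.11) and 1 with a fold change of at least 1.5, which also left 1 for hypoxia in siIGF1R cells (RXRG 0.414). For rhIGF1 in hypoxia in WM35 the count was 1 without both WM35 control arrays that stood apart, an alternative chosen after seeing the data. Each array left out in turn gave 0 to 1 called members there (1 without hypoxia control A and 1 without normoxia control B), and 1 to 2 for the hypoxia difference between lines (2 without WM35 normoxia control B). That difference had 0 called members with no further background correction (RXRG 0.721, adjusted p = 0.061). The cause of these changes was not tested. Uncalled values that crossed 0 were counted as unchanged, arrays were left out of the comparisons between lines only where they entered them, and the interactions use all arrays of a line, so leaving out other groups could not apply.

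With the replicate block the counts of called members were the same, at 2 for siIGF1R in normoxia and in hypoxia (CDH19 adjusted p = 0.0015 and 3.4e-05). The deviations of same-letter arrays from their group means correlated over 0.1 in 5 of 18 pairs in Mel-624 and 8 of 18 in WM35, against 0 of 36 and 12 of 36 pairs of different letters. On the main axis of spread within Mel-624 groups all 4 A arrays lay below 0 and all 4 B arrays above it. This is a hint from the data, not the design, that arrays of a letter share something in Mel-624, but not every pair passed 0.1, so the letters were not taken to pair the arrays. CDH19 in Mel-624 siControl cells is limited by signal over background, with signals of 17.6 to 25.3 in normoxia and 31.5 to 35.3 in hypoxia. The lowest detected signals on Mel-624 arrays were 26.3 to 41.7. In siIGF1R cells CDH19 gave 48.3 to 55.8 in normoxia and 105 to 146 in hypoxia.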
